A study of Mus musculus with 2 samples.

Results

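The genes of glucuronidation and sulfation were examined in 1 library of small hepatocytes (SHs) and 1 library of mature hepatocytes (MHs) from C57BL6 mouse liver. They were found by symbol among the 43280 gene symbols of the deposited read counts. The search gave 41 genes, of which 20 were Ugt genes, the UDP-glucuronosyltransferases and their relatives (Ugt1a, Ugt2a, Ugt2b and Ugt3a genes), 18 were cytosolic sulfotransferases (Sult genes) and 3 were the cofactor synthesis genes Ugdh, Papss1 and Papss2. The rule used symbols and no measured value, but it was set with earlier results of these data known. Both cell fractions were freshly isolated from collagenase-perfused livers of the same animals, and the labels give an age of 20 weeks, whereas the methods give a younger age range. MHs were the pellet of the slowest centrifugation, and were not sorted. SHs came from the supernatant and were sorted for ICAM-1 among cells that lacked EpCAM, CD45 and CD31. Both were cleared of dead cells on Percoll. The methods state that livers of several mice were used, but each fraction was sequenced as a single library.

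UDP-glucuronosyltransferases are enzymes of the endoplasmic reticulum that attach glucuronic acid, taken from UDP-glucuronic acid, to bilirubin, steroids, bile acids and drugs. Cytosolic sulfotransferases attach a sulfonate group, taken from the donor PAPS, to phenols, catecholamines, steroids and bile acids. Both reactions make their substrates more soluble in water, and the products leave hepatocytes through export pumps towards bile or blood. In the liver lobule, glucuronidation is known as stronger near the central vein and sulfation as stronger near the portal vein.

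Counted reads came to 16979136 for MHs and 42356444 for SHs. Levels are given as reads per 1000000 counted reads (RPM), and 3 reads, taken as the floor of detection, equalled 0.177 RPM for MHs and 0.0708 RPM for SHs. For each gene the log2 ratio of RPM in SHs over MHs was computed, with a 95% Clopper-Pearson interval given in parentheses. The intervals cover counting error only. Since neither fraction had a replicate, no test between fractions could be run, and p-values are not given. Among the 9608 genes that reached 200 reads in the libraries together, the median log2 ratio was 0.03, and the 5th and 95th percentiles were -0.40 and 0.42. Of these genes, 16.9% had an interval wholly under 0 and 23.2% one wholly over 0. In bulk libraries, fewer cells with a transcript and less of it per cell cannot be told apart.

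Markers of the labelled cell type were present in both libraries, and those of other cells differed between them. The 7 hepatocyte genes, among them Alb and Cps1, had log2 ratios from -0.19 for Apoa1 to 0.13 for Alb. The 7 endothelial genes summed to 57.7 RPM for MHs and 4.16 RPM for SHs, the 7 macrophage genes found to 16.1 and 0.378 RPM, and the 6 stellate cell genes to 18.1 and 1.94 RPM. Lyve1 and Marco were at 0 reads in SHs. The 6 cholangiocyte genes summed to 13.96 RPM for MHs and 14.1 RPM for SHs, nearly all from Sox9 and Spp1. Intervals lay under 0 for all 10 central vein markers, with a median log2 ratio of -1.83. They lay over 0 for all 10 portal vein markers, with a median of 0.52. Of all genes with at least 10 reads, 15.5% had an interval under 0 and 16.8% one over 0. The marker lists were chosen with earlier results of these data known. The paper had reported several of these markers as differing between the fractions, so these directions were partly known beforehand. The part of other cells and of lobular position in the ratios of the conjugation genes was not tested.

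Ugt transcripts were lower in SHs than in MHs across most of the family. All 20 Ugt genes reached 10 reads in the libraries together. Together they took 0.358% of counted reads in MHs and 0.272% in SHs, or 3575 and 2723 RPM, a log2 ratio of -0.39 (-0.41 to -0.38). The ratio was under 0 for 16 of the 20 genes, beside 48.0% of all 15521 genes with at least 10 reads. The interval lay wholly under 0 for 13 of the 20 and wholly over 0 for 1, Ugt1a9, against 15.5% and 16.8% of those 15521 genes. Of the 15 Ugt genes with at least 200 reads these were again 13 and 1, beside 16.9% and 23.2% at that depth. More reads make an interval narrower, so such counts depend on depth as well as on the ratio. The median log2 ratio of the 20 genes was -0.30, beside 0.02 over all 15521 genes. None was at least 2-fold lower or higher with an interval on that side of 0, as 4.46% and 2.00% of all those genes were (0.812% and 0.354% of those with at least 200 reads). Of the 15 Ugt genes with at least 200 reads, 7 lay below the 5th percentile of all genes at that depth, which holds 5.01% of them by construction. They were Ugt2b35, Ugt1a6a, Ugt2b1, Ugt1a5, Ugt2b37, Ugt2b34 and Ugt3a2. At a threshold of 1.5-fold, 4 Ugt genes were lower in SHs, namely Ugt2b35, Ugt1a6a, Ugt2b1 and Ugt1a5, beside 6.20% of all genes with at least 10 reads and 2.10% of those with at least 200. At that threshold 0 of the 22 members with at least 200 reads were higher, beside 3.50% and 1.86%.

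**Figure D1:**
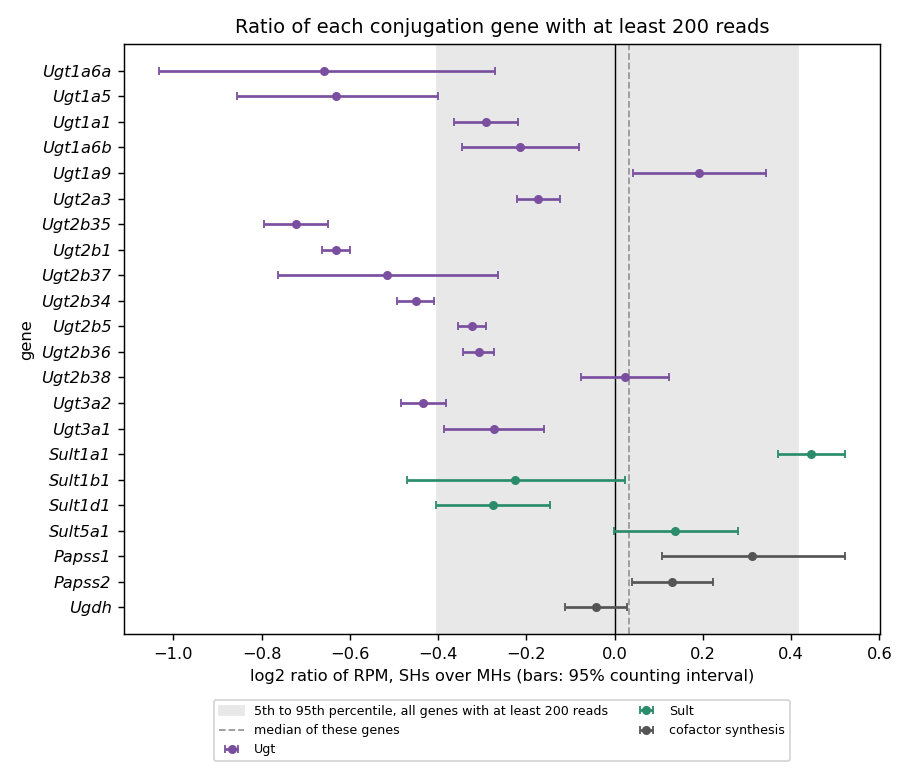
Log2 ratio of RPM in SHs over MHs (x axis) for the 22 conjugation genes with at least 200 reads (y axis), by family, 1 library each. Points are ratios and bars their 95% counting intervals, and the grey band spans the 5th to 95th percentile of all genes with at least 200 reads, from -0.40 to 0.42. Most Ugt genes lie left of 0, down to -0.72 for Ugt2b35, whereas Sult1a1 lies right of the band at 0.45.

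The Ugt2b genes carried most of these reads. Enzymes of this subfamily are known for the glucuronidation of steroids, bile acids and drugs. They made up 76.1% of the Ugt reads in MHs (75.7% to 76.4%) and 74.1% in SHs (73.8% to 74.3%). As a sum, the 7 genes had 2719 RPM for MHs and 2017 RPM for SHs, a log2 ratio of -0.43 (-0.45 to -0.41). The interval lay under 0 for 6 of the 7 genes and included 0 for Ugt2b38.

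Ugt2b1 (chromosome 5, 86916638 to 86926530 of mm10) had 12882 reads for MHs and 20746 for SHs. In RPM this was 758.7 against 489.8, or -0.63 as log2 ratio (-0.66 to -0.60), so that its level in MHs was 1.55-fold that in SHs. Ugt2b35 (chromosome 5, 87000860 to 87013275), its neighbour, had 2539 and 3838 reads, or 149.5 and 90.6 RPM. Its log2 ratio of -0.72 (-0.80 to -0.65) was the lowest of the 22 members with at least 200 reads. Ugt2b34 had 7388 and 13479 reads, or 435.1 and 318.2 RPM, a log2 ratio of -0.45 (-0.49 to -0.41). The genes at one end of the cluster had intervals that stopped short of those of Ugt2b36 and Ugt2b5 further along it. Ugt2b36 had 9674 reads for MHs and 19496 for SHs, or 569.8 and 460.3 RPM, with a log2 ratio of -0.31 (-0.34 to -0.27). Ugt2b5 had the most reads of all 41 genes over both libraries, 12305 for MHs and 24541 for SHs. Its RPM of 724.7 and 579.4 gave a log2 ratio of -0.32 (-0.35 to -0.29).

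Per exon length, taken from GENCODE M21, the order of Ugt2b1 and Ugt2b36 differed between the libraries. Values were computed as reads per kilobase of exon per 1000000 counted reads (RPKM). In RPM, Ugt2b1 was above Ugt2b36 in both libraries, so the difference in order depends on the exon lengths used. The counting bounds do not cover error in those lengths. Outside the Ugt1a genes, Ugt2b5 was highest in both, with 390.1 RPKM for MHs and 311.8 for SHs. In MHs, Ugt2b1 followed with 294.9 RPKM, whose lower bound of 289.8 stood above the upper bound of 282.3 for Ugt2b36 at 276.7 RPKM, whereas in SHs the level of Ugt2b36, 223.6 RPKM (220.4 to 226.7), was above that of Ugt2b1, 190.4 (187.8 to 193.0). The reads of Ugt2b1 over those of Ugt2b5, a ratio that does not depend on library scaling, were 1.05 for MHs (1.02 to 1.07) and 0.845 for SHs (0.830 to 0.861). On the RPKM scale Ugt2a3 ranked next outside the Ugt1a genes in both libraries, with 135.7 for MHs and 120.3 for SHs.

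**Figure D2:**
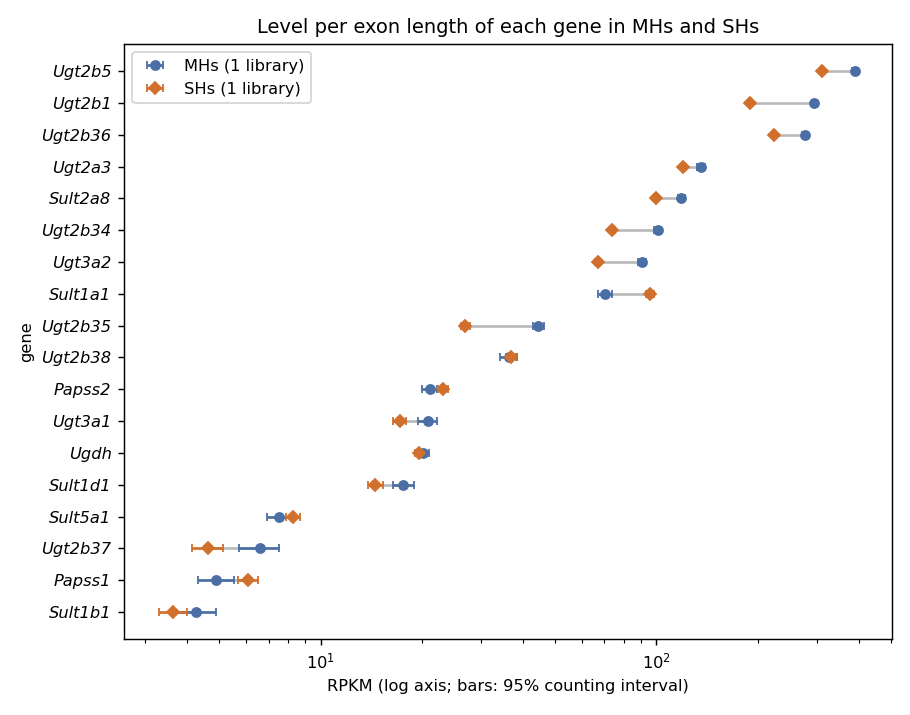
Level per exon length (x axis, RPKM, log axis) in MHs (circles) and SHs (diamonds) of the genes with at least 200 reads other than the Ugt1a genes, whose exons overlap, with 95% counting intervals. Sult2a8, counted under an older symbol and not among the 41 genes, is included. Ugt2b5 is highest in both libraries, at 390.1 and 311.8 RPKM, and Ugt2b1 and Ugt2b36 exchange order.

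Ugt2b37 and Ugt2b38 are close copies of Ugt2b5, and the ratio of Ugt2b38 stood apart from those of Ugt2b5 and Ugt2b37. Ugt2b37 had 212 reads for MHs and 370 for SHs, or 12.5 and 8.74 RPM, a log2 ratio of -0.52 (-0.76 to -0.26). This interval contained that of Ugt2b5 (-0.35 to -0.29), so these ratios could not be told apart. Ugt2b38 had 1165 and 2953 reads, or 68.6 and 69.7 RPM, and its log2 ratio of 0.02 (-0.08 to 0.12) was the only one of the subfamily that was not under 0. Reads of these copies could be counted on the wrong gene. Of the distinct 50-base stretches of their annotated transcripts, only 58.3% in Ugt2b5, 62.6% in Ugt2b38 and 81.7% in Ugt2b37 occurred in no other gene, compared with at least 98.6% in Ugt2b1, Ugt2b34, Ugt2b35 and Ugt2b36. The 3 copies summed had 805.8 RPM for MHs and 657.9 RPM for SHs, a log2 ratio of -0.29 (-0.32 to -0.26).

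The sequence before the start of these genes is shown because the copies are nearly the same there while the ratio of Ugt2b38 stood apart. Promoter windows of 300 bases, 250 before and 50 after each start, were taken from RefSeq on GRCm38.p6, the assembly of mm10, and 35 of the 41 genes had one. Ugt2b37 and Ugt2b38 were identical at 273 of 286 aligned bases (95.5%), and Ugt2b38 and Ugt2b5 at 261 of 290 (90.0%). Ugt2b1 was at most 78.4% identical to another Ugt2b gene. The 120 bases before the start are printed 5′ to 3′ on the gene's strand for Ugt2b5 (chr5:87140341-87140460, minus strand), Ugt2b37 (chr5:87254789-87254908, minus), Ugt2b38 (chr5:87424204-87424323, minus), Ugt2b36 (chr5:87092556-87092675, minus) and Ugt2b1 (chr5:86926504-86926623, minus). Capitals mark AGGTCA, the half-site of many nuclear receptors, searched on both strands.
Ugt2b5: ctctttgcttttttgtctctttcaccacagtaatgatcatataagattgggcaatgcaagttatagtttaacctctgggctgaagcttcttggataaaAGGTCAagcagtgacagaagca
Ugt2b37: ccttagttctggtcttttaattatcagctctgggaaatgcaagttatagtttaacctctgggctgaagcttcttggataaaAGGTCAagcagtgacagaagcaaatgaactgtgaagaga
Ugt2b38: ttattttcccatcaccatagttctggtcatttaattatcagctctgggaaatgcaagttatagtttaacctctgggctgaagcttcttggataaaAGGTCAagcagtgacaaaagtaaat
Ugt2b36: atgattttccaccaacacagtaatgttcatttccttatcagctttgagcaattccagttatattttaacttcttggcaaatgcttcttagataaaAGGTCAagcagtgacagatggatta
Ugt2b1: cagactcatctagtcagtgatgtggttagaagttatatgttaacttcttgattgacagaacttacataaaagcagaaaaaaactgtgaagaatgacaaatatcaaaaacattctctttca

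The motif AGGTCA lay in the same sequence context in Ugt2b5, Ugt2b37, Ugt2b38 and Ugt2b36, with its first base -22, -39, -25 and -25 from the start. It occurred in 16.3% of all 32851 promoter windows and in 10 of the 35 members with a window. The share counts windows, whereas the 10 and 35 count genes. Several of the 10 are Ugt2b paralogs and not independent of one another, and enrichment was not tested. Ugt2b35, with a log2 ratio of -0.72, had AGGTCA at -215, outside the stretch printed for the others. These letters were not in the window of Ugt2b1, from which nothing follows about any factor. The log2 ratios of Ugt2b5, Ugt2b37, Ugt2b38 and Ugt2b36 were -0.32, -0.52, 0.02 and -0.31, and that of Ugt2b1 was -0.63. Whether the motif bears on these ratios was not tested.

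All Ugt2 genes lie together on chromosome 5 with 3 sulfotransferase genes behind them. The 12 genes span 701.8 kb, from Ugt2b34 to Sult1e1 (chromosome 5, 86889767 to 87591594 of mm10). The 3 genes at the Ugt2b34 end, within 93.9 kb of its start, had log2 ratios of -0.45, -0.63 and -0.72. Further along, Ugt2a3 at 430.3 kb had -0.17 and Ugt2b38 at 517.3 kb had 0.02. Sult1b1 and Sult1d1, beyond the last Ugt2 gene, had -0.23 and -0.28. The order was not a steady one, since Ugt2b37 at 347.9 kb was again at -0.52. Genes of a cluster share sequence and libraries, so this is a description of position.

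**Figure D3:**
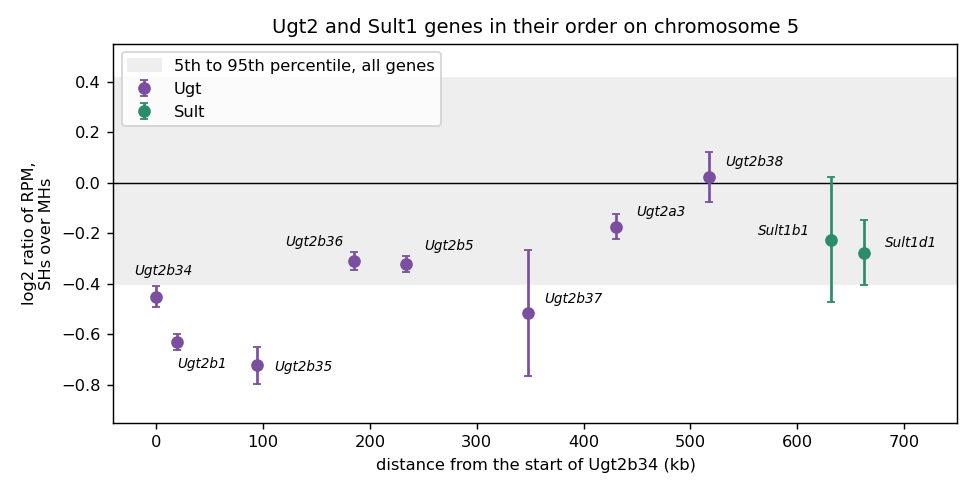
Log2 ratio of RPM in SHs over MHs (y axis) for the 10 genes of the chromosome 5 cluster with at least 200 reads, by the distance of their start from that of Ugt2b34 (x axis, kb). Bars are 95% counting intervals and the grey band is the 5th to 95th percentile of all genes with at least 200 reads. The lowest ratios, -0.63 and -0.72, are those of Ugt2b1 and Ugt2b35 at the left end.

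Ugt2a3 (chromosome 5, 87324972 to 87337195 of mm10) had 4876 reads for MHs and 10790 for SHs. Its 287.2 and 254.7 RPM gave a log2 ratio of -0.17 (-0.22 to -0.12). Ugt2a1, known from the olfactory epithelium, had only 5 and 12 reads. Only 3.0% of its 50-base stretches were its own, since it shares exons with Ugt2a2, so its reads are uncertain.

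The Ugt3a genes encode enzymes known to use UDP-sugars other than UDP-glucuronic acid, and both were lower in SHs. They are included in the counts and sums over all Ugt genes. Ugt3a2 (chromosome 15, 9335550 to 9370955) had 4765 reads for MHs and 8797 for SHs, or 280.6 and 207.7 RPM, a log2 ratio of -0.43 (-0.49 to -0.38). Ugt3a1 had 944 and 1948 reads, or 55.6 and 46.0 RPM, a log2 ratio of -0.27 (-0.39 to -0.16). The upper bound for Ugt3a2 and the lower bound for Ugt3a1 met at -0.38 and -0.39. As a pair they had 336.2 RPM for MHs and 253.7 RPM for SHs, a log2 ratio of -0.41 (-0.45 to -0.36).

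The Ugt1a genes went in both directions. They are 9 genes made from 1 locus on chromosome 1, each with a first exon of its own, spliced to the same last exons. Between 20.2% and 47.9% of the 50-base stretches of each were found in no other gene, and how reads of the common exons were counted is not given in the sources used here. Ugt1a8 had only 3 reads for MHs and 9 for SHs, so reads of the common exons were not counted on every Ugt1a gene. The sum over the 9 genes, which depends less on how reads were divided, was 232.5 RPM for MHs and 197.6 RPM for SHs, a log2 ratio of -0.23 (-0.29 to -0.18). Without Ugt1a1 it was -0.15.

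Ugt1a1 (chromosome 1, 88211959 to 88218997 of mm10), the enzyme that conjugates bilirubin, had most of these reads. It had 2365 reads for MHs and 4819 for SHs, or 139.3 and 113.8 RPM, a log2 ratio of -0.29 (-0.36 to -0.22). Ugt1a6a and Ugt1a6b, known for small planar phenols, had 96 and 691 reads in MHs and 152 and 1486 in SHs. Their log2 ratios were -0.66 (-1.03 to -0.27) and -0.21 (-0.35 to -0.08), and the 2 intervals overlapped. Ugt1a5 had 260 reads for MHs and 419 for SHs, or 15.3 and 9.89 RPM, a log2 ratio of -0.63 (-0.86 to -0.40). Ugt1a9 was the exception, with 487 reads for MHs and 1387 for SHs, or 28.7 and 32.7 RPM, and its log2 ratio of 0.19 (0.04 to 0.34) lay inside the range of most genes. Within a library, the reads of Ugt1a9 over those of Ugt1a1 were 0.206 for MHs (0.186 to 0.227) and 0.288 for SHs (0.271 to 0.306). The genes Ugt1a2, Ugt1a7c, Ugt1a8 and Ugt1a10 had between 12 and 77 reads over both libraries, and all 4 intervals included 0. For Ugt1a10, with 12 reads for MHs and 15 for SHs, the log2 ratio was -1.01 (-2.19 to 0.23).

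Promoter sequence is shown for Ugt1a1, Ugt1a9 and Ugt1a5 because their ratios went apart within 1 locus, and for Sult1d1 because it shares a motif with the first pair. HNF1 is a transcription factor of hepatocytes known to act on glucuronosyltransferase promoters. Capitals mark its motif, GTTAAT followed by any base and ATT, searched on both strands, in Ugt1a1 (chr1:88211839-88211958, plus strand), Ugt1a9 (chr1:88070659-88070778, plus) and Sult1d1 (chr5:87569007-87569126, minus). In Ugt1a5 (chr1:88165892-88166011, plus) they mark TNGCGTG, the motif of the aryl hydrocarbon receptor, also searched on both strands. Sult1d1 also holds TNGCGTG, in reverse with its first base at -47, which is left in lower case, and it does not overlap the HNF1 motif there. Each line holds the 120 bases before the RefSeq start on GRCm38.p6, 5′ to 3′ on the gene's strand.
Ugt1a1: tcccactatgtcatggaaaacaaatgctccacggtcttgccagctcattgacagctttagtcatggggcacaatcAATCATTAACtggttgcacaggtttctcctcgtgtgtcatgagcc
Ugt1a9: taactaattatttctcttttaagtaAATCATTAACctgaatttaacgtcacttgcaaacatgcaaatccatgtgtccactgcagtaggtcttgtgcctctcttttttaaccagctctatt
Sult1d1: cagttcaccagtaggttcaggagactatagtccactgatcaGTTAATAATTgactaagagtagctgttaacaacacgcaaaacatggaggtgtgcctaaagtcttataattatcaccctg
Ugt1a5: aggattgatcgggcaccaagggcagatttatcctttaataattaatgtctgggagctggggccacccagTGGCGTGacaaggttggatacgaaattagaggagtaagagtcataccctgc

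The HNF1 motif occurred in 0.399% of all promoter windows and in 8 of the 35 members with a window, Ugt1a1, Ugt1a9, Ugt1a10, Sult1d1 and 4 Sult2a genes. The 4 Sult2a genes are paralogs and the Ugt1a genes lie in 1 locus, so these 8 are not independent of one another. The share counts windows, whereas the 8 and 35 count genes, and enrichment was not tested. Ugt1a1 and Ugt1a9 both have the HNF1 motif and had log2 ratios of -0.29 and 0.19. The TNGCGTG motif occurred in 5.07% of all windows and in 3 of the members, Ugt1a5, Sult1d1 and Papss1, with log2 ratios of -0.63, -0.28 and 0.31. Whether either motif bears on the ratios was not tested.

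Sulfotransferase transcripts had no common direction. Of the 18 Sult genes, 6 reached 10 reads in the libraries together, and 4 reached 200. Of the 6, the interval was wholly over 0 for 1, Sult1a1, wholly under 0 for 1, Sult1d1, and included 0 for the others. This is near the 16.8% and 15.5% of all genes with at least 10 reads. Summed, the 18 genes had 198.3 RPM for MHs and 231.1 RPM for SHs, a log2 ratio of 0.22 (0.16 to 0.28). That direction rested on Sult1a1. Without it the sum was 92.3 RPM for MHs and 86.8 RPM for SHs, a log2 ratio of -0.09 (-0.18 to -0.0034).

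Sult1a1 (chromosome 7, 126672865 to 126676432 of mm10), the phenol sulfotransferase, had 1799 reads for MHs and 6114 for SHs. At 106 and 144 RPM its log2 ratio was 0.45 (0.37 to 0.52), the highest of the 22 members with at least 200 reads. It lay above the 95th percentile of all genes at that depth, which 5.01% of genes exceed by construction. Its level in SHs was 1.36-fold that in MHs. Sult1a1 made up 53.4% of the reads of the 18 Sult genes in MHs (51.7% to 55.1%) and 62.5% in SHs (61.5% to 63.4%). Sult1d1, known for catecholamines, had 737 and 1518 reads, or 43.4 and 35.8 RPM, a log2 ratio of -0.28 (-0.40 to -0.15). The reads of Sult1a1 over those of Sult1d1 were 2.44 for MHs (2.24 to 2.66) and 4.03 for SHs (3.81 to 4.26). Sult1b1, which sulfates thyroid hormones, had 201 and 429 reads, a log2 ratio of -0.23 (-0.47 to 0.02). Sult5a1 had 565 and 1551 reads, or 33.3 and 36.6 RPM, with an interval that just included 0 around a log2 ratio of 0.14 (-0.0018 to 0.28). The interval also included 0 for Sult1c2, with 50 and 128 reads.

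In both libraries 11 of the 18 Sult genes had no more than 3 reads. Of these, 5 had 0 reads in both, namely Sult1c1, Sult2a1, Sult2a2, Sult3a1 and Sult6b1. A count of 0 lies under the floors of 0.177 and 0.0708 RPM and does not show absence. Sult1e1, the estrogen sulfotransferase, had 4 reads for MHs and 3 for SHs. Sult2a7 was the only Sult2a gene found by symbol with more than 3 reads, 9 for MHs and 41 for SHs, and its interval included 0. In mouse liver, Sult2a1 and Sult3a1 are known as genes of females, and the labels do not give the sex of the animals.

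A further Sult2a gene was counted under an older symbol. RefSeq lists 2810007J24Rik as a synonym of Sult2a8 (chromosome 7, 14410686 to 14446769 of mm10), known as a bile acid sulfotransferase of mouse liver. It was looked up after the other Sult2a values had been seen. It had 6612 reads for MHs and 13828 for SHs, more than all 18 Sult genes found by symbol together. Its levels were 389.4 and 326.5 RPM, a log2 ratio of -0.25 (-0.30 to -0.21). Per exon length it stood at 118.6 RPKM for MHs and 99.4 for SHs, beside 70.3 and 95.8 RPKM for Sult1a1. With Sult2a8 the Sult sum was 587.7 RPM for MHs and 557.6 RPM for SHs, a log2 ratio of -0.08 (-0.11 to -0.04), so its sign turned. The Ugt reads over the Sult reads were 18.03 for MHs (17.4 to 18.7) and 11.8 for SHs (11.5 to 12.03) by symbol, and 6.08 (5.96 to 6.21) and 4.88 (4.82 to 4.95) with Sult2a8, so this ratio was lower in SHs either way.

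**Figure D4:**
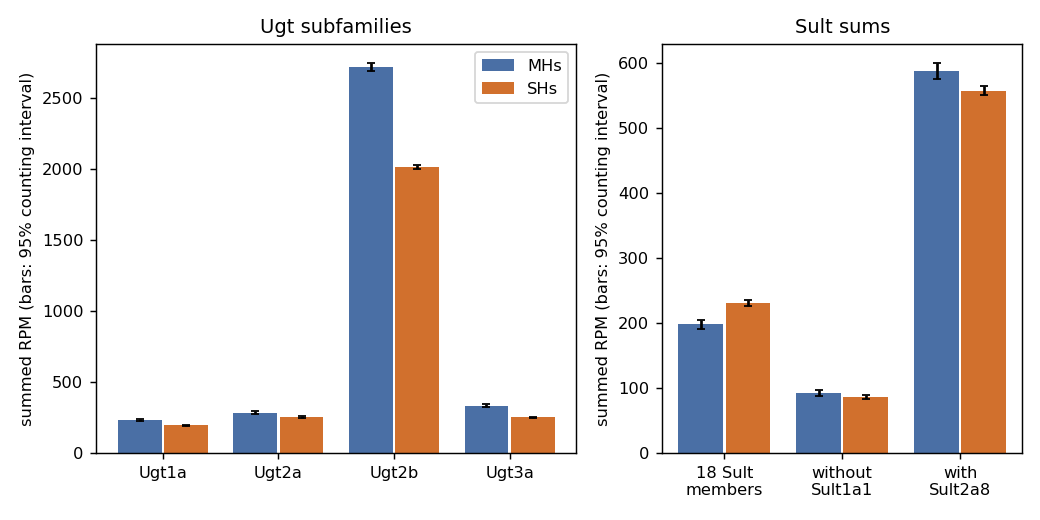
Summed RPM (y axis, from 0) of the Ugt subfamilies (left) and of the Sult genes (right) in MHs (blue) and SHs (orange), 1 library each, with 95% counting intervals. All 4 Ugt subfamilies are lower in SHs. The Sult sum is higher in SHs for the 18 genes found by symbol, at 231.1 against 198.3 RPM, and lower without Sult1a1 or with Sult2a8.

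The genes that make the cofactors were not lower in SHs beyond counting error. Ugdh (chromosome 5, 65413221 to 65435949), which oxidises UDP-glucose to UDP-glucuronic acid, had 2315 reads for MHs and 5605 for SHs, or 136.3 and 132.3 RPM, a log2 ratio of -0.04 (-0.11 to 0.03). Papss1 and Papss2 encode the synthases of PAPS, and both were higher in SHs. Papss2 (chromosome 19, 32595790 to 32667187) had 1335 and 3645 reads, or 78.6 and 86.1 RPM, a log2 ratio of 0.13 (0.04 to 0.22). Papss1 had 254 and 787 reads, or 14.96 and 18.6 RPM, a log2 ratio of 0.31 (0.11 to 0.52). Both ratios lay between the 5th and 95th percentiles of all genes with at least 200 reads. Per exon length Papss2 was the higher of the pair, with 21.1 RPKM for MHs and 23.1 for SHs against 4.90 and 6.09 for Papss1.

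The wider pathway was described with 46 listed genes. Counts reached 10 reads for 44 of them, Sulf1 had fewer and Sts was not analysed here. The interval lay under 0 for 11 of the 44 and over 0 for 17, beside 15.5% and 16.8% of all genes tested, and the median log2 ratio was 0.03. Of the 12 genes that supply the cofactors, 2 had an interval under 0 and 4 over 0. Slc35d1, which carries UDP-glucuronic acid into the endoplasmic reticulum, had 475 reads for MHs and 735 for SHs, a log2 ratio of -0.69 (-0.86 to -0.52). Ugp2, which makes UDP-glucose, had a log2 ratio of 0.15 (0.10 to 0.21). Impad1 and Bpnt1 encode phosphatases of the product left after PAPS has been used. Impad1, the one of the Golgi, had -0.23 (-0.40 to -0.06). Bpnt1, the one of the cytosol, had 0.05 (-0.08 to 0.18). Among 5 hydrolases with at least 10 reads, 4 had an interval over 0, from 0.20 for Gusb, the enzyme that removes glucuronic acid, to 0.54 for Sulf2, which acts on heparan sulfate outside cells.

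Of 8 transporters of conjugates and their precursors, 6 had an interval under 0 and 1 over 0, beside 15.5% and 16.8% of all genes with at least 10 reads, and the median log2 ratio was -0.55. Slco1b2, an uptake carrier for bilirubin and drugs, had 633.7 RPM for MHs and 319.2 for SHs, a log2 ratio of -0.99 (-1.03 to -0.95). Abcc2, the pump that moves bilirubin glucuronides into bile, had 487.8 and 333.9 RPM, a log2 ratio of -0.55 (-0.59 to -0.51). Slco2b1, a further uptake carrier, had 173.5 and 184.9 RPM, a log2 ratio of 0.09 (0.03 to 0.15), and was the only one with an interval over 0. Abcg2, a pump for sulfate conjugates, had -0.55 (-0.65 to -0.45).

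Of 9 receptors and factors known to act on conjugation genes, 3 had an interval under 0 and 3 over 0, beside the same 15.5% and 16.8%. Nr1i3, which encodes the receptor CAR, had 679 reads for MHs and 645 for SHs, or 40.0 and 15.2 RPM, a log2 ratio of -1.39 (-1.55 to -1.24). Ahr, the aryl hydrocarbon receptor, had 378 and 383 reads, a log2 ratio of -1.30 (-1.51 to -1.09). These 2 were at least 2-fold lower, as 4.46% of all genes with at least 10 reads and 0.812% of those with at least 200 were. Esr1 had the highest ratio of the 9, with 278 reads for MHs and 954 for SHs, a log2 ratio of 0.46 (0.27 to 0.66). Nr1i2, which encodes the receptor PXR, was also higher, with a log2 ratio of 0.18 (0.07 to 0.30). Hnf4a, which encodes a nuclear receptor of hepatocytes, had 0.04 (0.0030 to 0.07), and Ppara had -0.23 (-0.31 to -0.14).

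**Figure D5:**
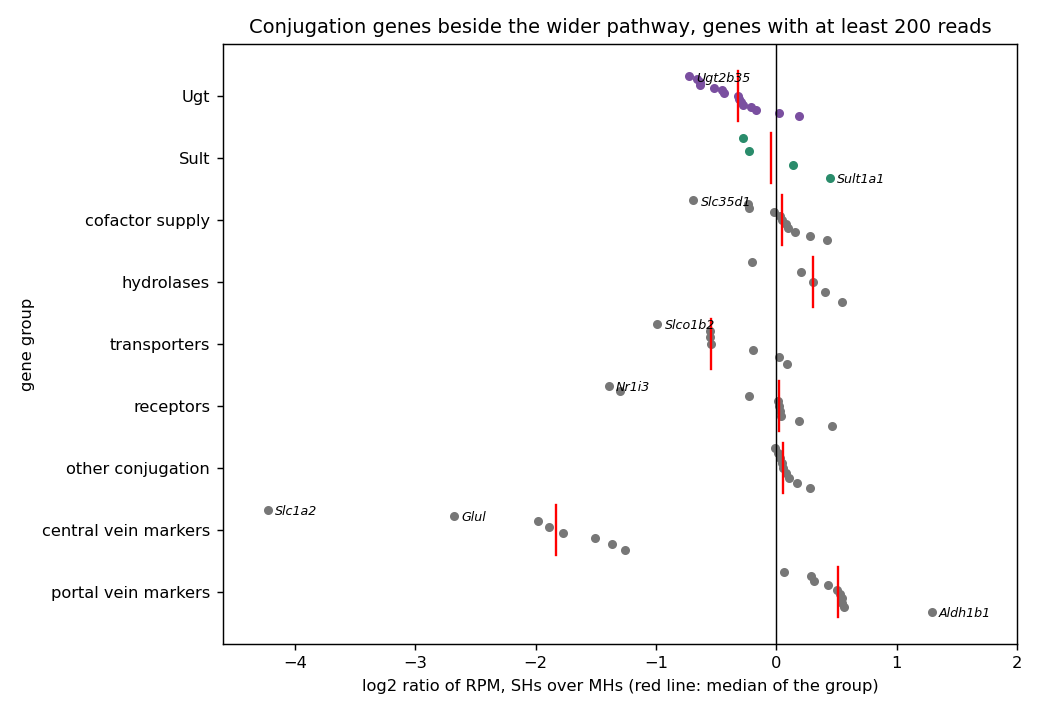
Log2 ratios of RPM in SHs over MHs (x axis) of the Ugt and Sult genes, 5 groups of pathway genes and markers of hepatocytes at the central and portal veins (y axis), for genes with at least 200 reads. Each point is a gene and red lines are medians. The median of the Ugt ratios, -0.32, lies between that of the central vein markers, -1.83, and that of the portal vein markers, 0.52.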

How the data were processed

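Poly(A) RNA of 1 SH and 1 MH sample had been sequenced on an Ion Proton system. Whole-number read counts by gene symbol, not normalized, are what the authors deposited. The methods describe trimming, alignment to mm10 with up to 10 hits per read in CLC Genomics Workbench and RPKM values. The program, annotation, strand setting and treatment of reads with several hits behind the counts are not given in the sources used here, so reads of paralogs are uncertain.

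RPM, log2 ratios with 0.5 reads added and 95% Clopper-Pearson intervals were computed in Python 3.11.15 (numpy 2.4.6, pandas 2.3.3, scipy 1.17.1). Sums had no reads added. With 1 library of each fraction no test was run, and the precision is that of the counts, from 16979136 and 42356444 reads. Reads carried no molecular identifiers. Members with at least 200 reads were named with values, those with fewer by range or reads, and with a ratio where past 2-fold. List counts used genes with at least 10 reads. RPKM used the union of exons in GENCODE M21, which held all 41 members. Promoter windows were aligned without penalty for end gaps.

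Alternatives were scaling by edgeR's TMM (4.0.16), by DESeq2's size factors (1.42.0) or to a total that left out the 10 most counted genes, then 2 added reads, other minimums and folds, and sums without the largest member. Chosen after seeing the data were sums with Sult2a8, the Ugt list without Ugt1a, and a minimum of 200 reads. The members and lists were chosen with earlier results of these data known. The calculation was tested on simulated data.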

Additional observations from a re-analysis of the deposited data

How the results depend on the processing

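No paired analysis was possible because each fraction had a single library. For the same reason no library was left out.

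Use of TMM factors, of DESeq2's size factors, or of a total that left out the 10 most counted genes, shifted every log2 ratio by 0.01, 0.01 and 0.03. Under these and with 2 added reads, none of the 29 members with at least 10 reads changed the sign of a ratio whose interval excluded 0, and 1, Ugt2b5, moved beyond its interval, to -0.29. The Ugt sum was -0.36 with that smaller total and -0.41 without Ugt2b5. The Sult sum reversed to -0.0896 without Sult1a1 and, chosen after the data were seen, to -0.0759 with Sult2a8. The sum of the Sult1 genes alone reversed to -0.25 without Sult1a1. Without their largest member the sums of Ugt1a, Ugt2a, Ugt2b and Ugt3a were -0.15, -0.06, -0.47 and -0.27. Under each of the 3 scalings, 2 Sult genes instead of 1 had an interval over 0. The Sult median of 0.08 over 6 genes was 0.0286 with at least 100 reads, 0.14 with at least 1 read and -0.0448 with at least 200 reads. Without the Ugt1a genes, 0 Ugt genes had an interval over 0. At 1.5-fold, 4 Ugt and 5 pathway genes were lower, beside 6.20% of all genes with at least 10 reads. At 4-fold 1 pathway gene was, beside 391 of all 15521 genes. This was Abcc4, with only 13 reads for MHs and 7 for SHs.

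Over all genes, 693 were at least 2-fold lower and 310 higher. These were 128 and 61 with at least 100 reads and 78 and 34 with at least 200 reads. At 4-fold they were 391 and 137, and at 1.5-fold 962 and 543. For these results fewer or more genes entered by construction. Depth limits the 12 Sult genes with fewer than 10 reads.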

Other observations

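The 21 glutathione transferase genes summed to 2684 RPM for MHs and 2771 RPM for SHs, a log2 ratio of 0.05 (0.03 to 0.06), with intervals under 0 for 9 and over 0 for 6 of the 19 with at least 10 reads, beside 15.5% and 16.8% of all genes at that depth. The 99 cytochrome P450 genes summed to a log2 ratio of -0.41 (-0.42 to -0.40), an interval that overlapped that of the Ugt sum (-0.41 to -0.38). Of the 70 with at least 10 reads, 47 had an interval under 0 and 6 over 0. Of these 70, 20 were at least 2-fold lower, beside 4.46% of all genes, whereas 0 of the 20 Ugt genes were. The difference between families was not tested.

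Of 10 genes of other conjugation reactions, 5 had a counting interval over 0 and 0 had one under 0, beside 16.8% and 15.5% of all genes with at least 10 reads (23.2% and 16.9% with at least 200). Gnmt, which methylates glycine, had 2050 RPM for MHs and 2486 RPM for SHs, a log2 ratio of 0.28 (0.26 to 0.30). Nnmt, which methylates nicotinamide, had 0.17 (0.09 to 0.25), and Glyat, which joins glycine to acids, had 0.11 (0.04 to 0.17).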
